A study of Mus musculus with 374 samples.

Results

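Erythroblasts are the nucleated precursors of red blood cells. As they mature in the bone marrow they fill with haemoglobin, take up iron, build the red cell membrane and the skeleton under it, divide a few more times, condense the nucleus and finally expel it. The antigen Ter119 appears on the surface as maturation proceeds, while the adhesion receptor CD44 and cell size decline, so that these signals are used in flow cytometry to order the stages.

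The population described here is the 96 single cells sorted as erythroblasts, out of 374 single cells of 5 sorted blood cell populations, and its members were chosen by their sample labels (title prefix EryB, plate rows C to F) and not by any measured count. All cells came from 1 C57BL/6 female mouse aged 10 to 13 weeks. Erythroblasts were gated as Ter119+ CD44+ cells of mid to high forward scatter area, a measure of cell size, from the bone marrow. The cells they are set against are 44 B lymphocytes (B220+, low forward scatter), 96 granulocytes (Mac1+ Gr1+) and 95 progenitor/stem cells (Lin- Kit+ Sca1+) from the same marrow, and 43 T lymphocytes (CD3+, low forward scatter) from the thymus of the same animal. Each cell went into its own well of a 384-well plate, and its RNA was counted by CEL-seq2. This method reads the 3′ end of transcripts caught by a dT primer. It marks each molecule with a unique molecular identifier (UMI), so that a UMI count is a count of the molecules caught. Each population filled its own plate rows, so that plate position and population cannot be told apart. With 1 mouse, each population is 1 sample: wells are not replicates, no test between populations could be made, and the intervals given are 95% exact intervals that cover counting error only.

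The erythroblast wells held 466 to 20457 UMIs on mouse genes with a median of 6113.5, and 666728 in sum. The other sums were 135808 for B lymphocytes, 200396 for T lymphocytes, 403506 for granulocytes and 834812 for progenitor/stem cells. Against the ERCC spike-in RNA added to each well, the median erythroblast gave 15.1 mouse UMIs per ERCC UMI, compared with 7.10 in B lymphocytes, 9.35 in T lymphocytes, 9.02 in granulocytes and 17.2 in progenitor/stem cells. The 7 wells whose counts correlated best with the sum of a population other than their own included 1 erythroblast well, C5, which held the lowest number of UMIs. Well C5 resembled granulocytes, had 0 UMIs of Car2 and Slc4a1, and carried 2.58% of its 466 UMIs on 8 granulocyte markers, against a median of 0.172% over the erythroblast wells. At this depth the likeness and the zeros rest on few UMIs, and their cause was not tested. Counts below are given with all wells, and without the 7 wells where they lead a result.

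The label held in these data. The 5 erythroid markers Hba-a1 and Hbb-bs (globin chains), Alas2 (the erythroid enzyme that starts haem synthesis), Car2 (carbonic anhydrase 2) and Slc4a1 (band 3, the anion exchanger) were each detected in at least 95 of the 96 wells, C5 being the well without Car2 and Slc4a1. Detection alone does not set these cells apart: Hba-a1 and Hbb-bs UMIs were also found in at least 97.9% of the wells of each other population, and Alas2 in 34.4% to 53.5%, although these wells were as a rule no deeper (median 3028.5 to 4347 UMIs, and 7959 in progenitor/stem cells). Car2 was found in all 95 progenitor/stem cell wells and in 47.7% to 72.1% of the wells of B lymphocytes, T lymphocytes and granulocytes. Slc4a1 was found in 51.0% to 67.4% of the wells of each other population. Markers of the other sorted populations held smaller shares than in their own population: B lymphocyte markers held 0.0121% of erythroblast UMIs against 0.956% of B lymphocyte UMIs, T lymphocyte markers 0.0039% against 0.396%, granulocyte markers 0.172% against 15.2%, and progenitor markers 0.0135% against 0.353%. The 8 markers of macrophages, the cells that nurse erythroblasts in marrow islands, summed to 9 UMIs in all 96 wells, and the 7 megakaryocyte markers to 32. The macrophage markers thus made up 0.00135% of the erythroblast sum. The megakaryocyte markers made up 0.0048% of it, above the 0.000736% to 0.0020% in B lymphocytes, T lymphocytes and granulocytes and below the 0.0107% in progenitor/stem cells.

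Promoter letters of 4 of the erythroid genes described below, a globin, a haem enzyme, the erythropoietin receptor and a ubiquitin ligase, are shown first. They were picked from 9 genes read, all at least 4-fold above each other population, because their windows hold AGATAA or TTATCT. The sequences are RefSeq windows upstream of the transcript start (assembly GRCm38.p6), 5′ to 3′ on the strand of the gene, and those of Hbb-bs and Alas2 stop where the GENCODE M21 gene model begins. Capitals mark AGATAA or its reverse complement TTATCT, a form of the letters that GATA factors prefer. They also mark CACCC or its reverse complement GGGTG, the letters of the box that KLF factors prefer. The windows of Hbb-bs and Alas2 hold 1 and 3 matches to CACCC or GGGTG, all in bases not printed.
Hbb-bs (chr7:103828097-103828178, minus strand): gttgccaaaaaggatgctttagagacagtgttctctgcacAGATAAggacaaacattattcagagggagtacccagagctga
Alas2 (chrX:150547167-150547374, plus strand): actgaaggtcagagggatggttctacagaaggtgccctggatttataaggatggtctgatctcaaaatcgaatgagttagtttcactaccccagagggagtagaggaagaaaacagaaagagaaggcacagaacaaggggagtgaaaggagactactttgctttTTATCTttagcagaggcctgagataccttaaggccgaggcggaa
Epor (chr9:21963577-21963826, minus strand): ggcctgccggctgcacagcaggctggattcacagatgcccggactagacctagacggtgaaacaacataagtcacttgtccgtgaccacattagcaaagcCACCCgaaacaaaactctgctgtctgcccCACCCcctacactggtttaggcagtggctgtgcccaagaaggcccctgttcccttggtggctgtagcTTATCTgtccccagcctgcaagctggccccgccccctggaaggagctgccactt
Trim10 (chr17:36869324-36869573, plus strand): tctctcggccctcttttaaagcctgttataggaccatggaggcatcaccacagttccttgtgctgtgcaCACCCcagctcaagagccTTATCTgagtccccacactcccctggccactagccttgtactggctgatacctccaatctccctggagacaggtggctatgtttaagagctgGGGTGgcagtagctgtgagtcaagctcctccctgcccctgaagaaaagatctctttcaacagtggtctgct
In these 4 windows the GATA letters lay 210 (Hbb-bs), 86 (Alas2), 54 (Epor) and 163 (Trim10) bases before the RefSeq start. Over windows of 250 bases on both strands, AGATAA or TTATCT occurred in 11.25% of 240 windows of the genes at least 4-fold higher in erythroblasts than in each other population, in 4.84% of 289 windows of the genes at least 4-fold lower, in 6.07% of the windows of all tested genes and in 9.99% of all 32851 promoters. CACCC or GGGTG occurred in 62.5%, 63.3%, 56.0% and 52.0% of the same windows. Of the 247 higher genes, 184 were matched to a promoter by symbol. A match is a description of letters, and the windows of the other 5 of the 9 genes (Hba-a1, Hbb-bt, Klf1, Ermap and Rhag) held no AGATAA or TTATCT. Other forms of the GATA letters were not counted, and the windows of Hba-a1, Klf1, Ermap and Rhag held TGATAA or its reverse complement TTATCA.

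Expression is given as UMIs scaled to 1000000 UMIs on mouse genes (CPM) of the summed wells, with the lowest, median and highest well where they matter. A gene is called higher or lower when its CPM differed by at least 4-fold, with sums under 3 UMIs set to 3 and at least 10 UMIs in the higher sum. The minimum of 3 serves calls and ranking, and a printed ratio uses the sums as counted. Of 6317 genes with at least 50 UMIs over all wells, 247 (3.91%) were higher in erythroblasts than in each of the other 4 populations and 237 (3.75%) were lower than in each. Without the 7 wells these counts were 242 and 227. With B lymphocyte sums set to at least 3 UMIs, no gene under 59 erythroblast UMIs was called higher than in each. The 3.91% therefore covers genes with too few erythroblast UMIs to pass, and is a low mark for lists of abundant genes. The gene lists used below were chosen with earlier results of these data known. Their counts beside this mark describe the lists and are no independent evidence. Against single populations the share of tested genes called higher was 17.3% for B lymphocytes, 17.7% for T lymphocytes, 20% for granulocytes and 8.26% for progenitor/stem cells, and the share called lower was 7.62%, 11.2%, 18.5% and 21.6%. The median log2 ratio of erythroblasts over each population was 0.35, 0.02, 0.55 and −0.73 in the same order. The split depends on the scaling: of the genes called against each of the 4 populations, 51.0% were higher by CPM, 76.5% with trimmed mean (TMM) factors, 72.1% when scaled to ERCC UMIs and 60.8% when adult globins and Gm42418 were left out of the totals. Scaling moves all log2 ratios to a population by 1 amount: TMM factors add 0.76, 0.84, 0.09 and 0.86 against B lymphocytes, T lymphocytes, granulocytes and progenitor/stem cells, and ERCC scaling adds 1.21, 0.78, 0.84 and −0.11. Ratios close to 1 therefore turn with the scaling. The 247 higher genes held 36.1% of all erythroblast UMIs.

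A few transcripts made up much of each erythroblast. The 5 genes with most UMIs held 32.1% of the erythroblast sum, against 16.6% for the top 5 of the progenitor/stem cells and 29.0% for those of granulocytes. In erythroblasts they were Gm42418 (57270 UMIs), Hbb-bs (56827), Hba-a1 (49209), Hbb-bt (26861) and Hba-a2 (24031). Gm42418 is a gene model on chromosome 17 (39846958 to 39848788, plus strand) at a ribosomal RNA repeat, and whether the counting used strand is not stated by the sources. The next places were taken by mt-Rnr2 (13497), Mir6240 (4428), the histone gene Hist1h2ap (3714), the globin pseudogene Hba-ps4 (3469), Car2 (3449), the proliferation antigen gene Mki67 (3374), mt-Rnr1 (3134), Slc4a1 (2857), Fth1 (2644, ferritin heavy chain) and Gpx1 (2336, glutathione peroxidase 1). When each well was thinned to 1000 UMIs, the median erythroblast showed 469 genes (range 282 to 688, 1 well left out as too shallow), fewer than the 701 of progenitor/stem cells, the 672.5 of T lymphocytes and the 611 of B lymphocytes, and close to the 485.5 of granulocytes. Unthinned, the median erythroblast well had 1868 genes. With the 4 adult globins and Gm42418 removed before thinning, the erythroblast median was 704 genes, against 802 in progenitor/stem cells and 567 in granulocytes.

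The 4 adult globin genes encode the alpha (Hba-a1, Hba-a2) and beta (Hbb-bs, Hbb-bt) chains of haemoglobin. Together they held 23.5% of erythroblast UMIs (95% exact binomial interval 23.4 to 23.6). By well the share was 3.53% at the lowest, 26.6% at the median and 52.3% at the highest. In the other populations the summed share was 2.83% in B lymphocytes, 1.77% in T lymphocytes, 1.54% in granulocytes and 1.21% in progenitor/stem cells, and the median well held 1.80%, 1.67%, 1.63% and 0.991%. The ratio of erythroblasts to the others was therefore 8.32-fold (8.06 to 8.59), 13.3-fold (12.9 to 13.8), 15.3-fold (14.9 to 15.7) and 19.4-fold (19.0 to 19.8). Globin UMIs are present in wells of cells that should lack globin RNA, and the part of such RNA in the ratios of other genes was not tested. The groups overlapped at their edges: 10 wells of B lymphocytes, 2 of T lymphocytes, 2 of granulocytes and 3 of progenitor/stem cells exceeded the lowest erythroblast well, and no well of these populations exceeded the median erythroblast well.

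**Figure D1:**
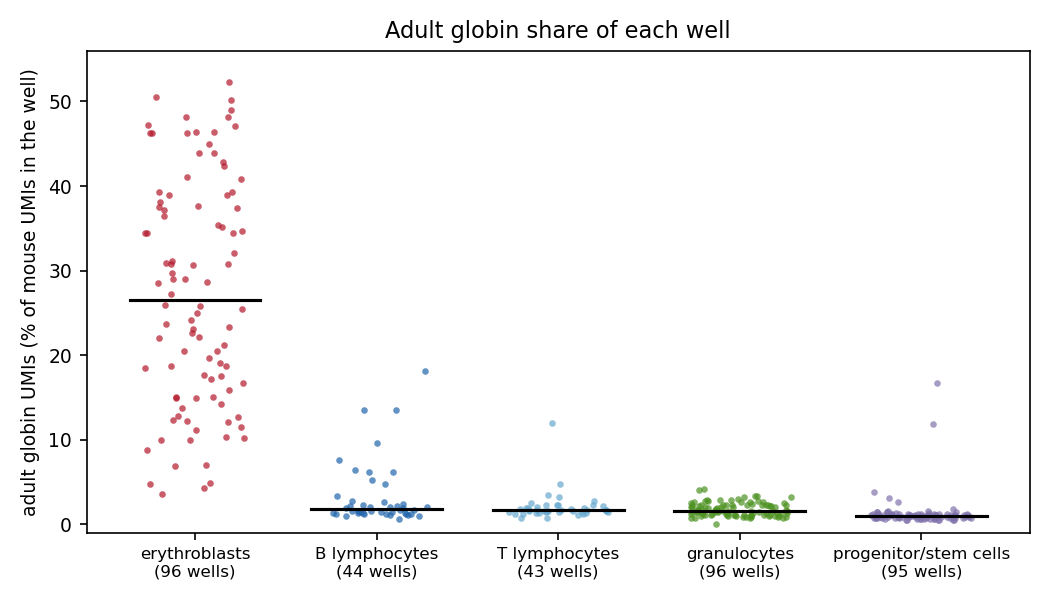
Adult globin UMIs of the alpha and beta chains as a percentage of the mouse UMIs of each well, with 1 point per well and a bar at the median of each population. Erythroblast wells spread from 3.53% to 52.3% around a median of 26.6%, while the medians of the other populations lie between 0.991% and 1.80%.

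Hbb-bs (ENSMUSG00000052305) had 85233 CPM in the erythroblast sum, with 9910 in the lowest well, 97564 in the median well and 196378 in the highest. Hba-a1 (ENSMUSG00000069919) had 73807 CPM, with 12668, 85394 and 153582 in the lowest, median and highest well. Hbb-bt was at 40288 CPM and Hba-a2 at 36043 CPM. The members of each pair are near-identical in sequence, as is Hba-ps4, so that the division of reads between them is uncertain. Hba-ps4 exceeded each other population by at least 15.0-fold, more than the genes it resembles. Of the 6 embryonic and minor globins, Hbq1b (theta) had 85 erythroblast UMIs and was higher than in each population, Hbb-y had 16 UMIs, Hbb-bh1 12, Hba-x 3, Hbq1a 3 and Hbb-bh2 1, the last 5 being under the minimum for a call.

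Haem, the iron-carrying group of haemoglobin, is made by a chain of enzymes in the mitochondrion and the cytosol, and the genes of this route stood higher in erythroblasts almost throughout. Of 14 listed genes 12 had enough UMIs, and 10 of these (against 3.91% of all tested genes) were higher than in each other population. The median log2 ratio of those tested was 3.40 against B lymphocytes, 3.80 against T lymphocytes, 4.03 against granulocytes and 4.10 against progenitor/stem cells. The list summed to 1.09% of erythroblast UMIs, with 0.635% in the lowest well, 1.12% in the median well and 1.69% in the highest, so that it varied less between wells than the globins.

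The first enzyme, Alas2 (X: 150547375 to 150570638, plus strand), had 1864 CPM in the erythroblast sum and 86.2, 2016 and 7284 CPM in the lowest, median and highest well. It was 11.0-fold above B lymphocytes, 10.4-fold above T lymphocytes, 16.4-fold above granulocytes and 22.6-fold above progenitor/stem cells. Its housekeeping counterpart Alas1 had 2 UMIs in all 96 wells together, against 47 in granulocytes and 39 in progenitor/stem cells, and the log2 ratio to progenitor/stem cells was −3.96 (interval −7.06 to −2.01). The erythroid form of the enzyme was thus found in every well and the other form in 2. Of the later enzymes, Alad (691 CPM) was at least 18.6-fold, Urod (702 CPM) at least 9.77-fold, Cpox (1881 CPM) at least 12.2-fold, Ppox (442 CPM) at least 5.76-fold and Fech (1290 CPM), which inserts the iron, at least 8.34-fold above each population. Uros, the enzyme that makes the substrate of Urod, had 44 UMIs in erythroblasts and 3 in all other populations, under the minimum for a call. Among transporters, Abcb10, a mitochondrial membrane protein tied to haem synthesis, was 27.3-fold and 30.6-fold above granulocytes and progenitor/stem cells, with 1 and 2 UMIs in B and T lymphocytes against 586, Tmem14c, a porphyrin transporter, at least 8.12-fold, and Slc25a38, the mitochondrial glycine carrier, at least 5.20-fold. Abcb6 had 1 UMI.

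**Figure D2:**
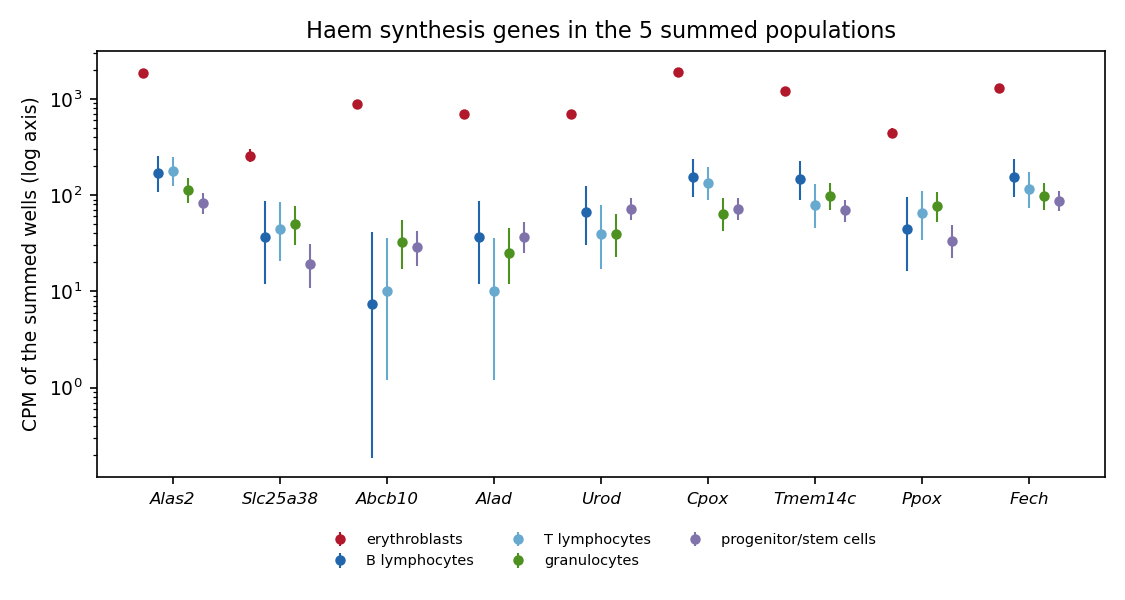
CPM of 9 haem synthesis genes in the summed wells of each population, on a log axis, with 95% exact Poisson intervals of the sums. The erythroblast point of each gene lies above the intervals of the other 4 populations, from 258 CPM for Slc25a38 to 1881 CPM for Cpox.

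Iron for haem enters through the transferrin receptor. Its gene Tfrc had 1782 CPM, at least 4.65-fold above each population, and it was detected in all 96 wells. Slc25a37 (mitoferrin 1), which carries the iron into the mitochondrion, had 1908 CPM and was at least 6.48-fold higher, and Glrx5, an iron-sulphur cluster protein, had 774 CPM and was at least 8.73-fold higher. These were the 3 of 12 tested iron handling genes higher than in each population, against 3.91% of all tested genes. Fth1 had 3966 CPM and was higher by 3.64-fold than in B lymphocytes and 3.78-fold than in granulocytes, just under the limit for a call, and by 6.36-fold and 4.65-fold than in T lymphocytes and progenitor/stem cells. With TMM factors or ERCC scaling 5 iron genes instead of 3 passed. Flvcr1, the haem exporter, was not analysed here.

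Of 14 red cell surface genes 13 were tested and 10 were higher than in each population (against 3.91% of all tested genes), among them the Rh complex genes Rhag and Rhd, the water channel Aqp1, the blood group genes Kel, Xk, Ermap and Icam4, the basigin gene Bsg and Tspo2. Ermap (300 UMIs against 4, 2, 3 and 4 in B lymphocytes, T lymphocytes, granulocytes and progenitor/stem cells), Rhag (733 CPM, 14.2-fold to 29.2-fold) and Tspo2 (181 UMIs against 2, 2, 1 and 4) were among the 15 genes with the highest smallest ratio. The log2 ratio of Tspo2 to B lymphocytes was 4.20 with an interval of 2.33 to 7.26, and with the mean of single-well CPM in place of sums its smallest log2 ratio fell from 3.62 to 2.36. Cd47, which marks cells as self, was at 1516 CPM and at most 2.62-fold above the others. Although CD44 protein was part of the sort gate, Cd44 RNA was found as 1 UMI in all 96 wells, compared with 23 in granulocytes and 28 in progenitor/stem cells. Slc2a1, the glucose transporter of human red cells, had 0 UMIs, which at a limit of 3 UMIs allows a share of up to 0.00045% of the erythroblast UMIs. Of the membrane skeleton genes 6 of 10 tested were higher than in each population (against 3.91%). Slc4a1, the anion exchanger that anchors the skeleton, had 4285 CPM with 0, 4598 and 9573 in the lowest, median and highest well, and was 10.8-fold to 27.3-fold above the others. Epb42, Dmtn, Gypc and Stom also passed. Tpm3, a tropomyosin, was lower than in each population (79.5 CPM), a call that was lost with TMM factors and ERCC scaling. Sptb, Epb41 and Add2 were not analysed here.

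Carbonic anhydrases speed the exchange of carbon dioxide and bicarbonate in red cells. Car2 had 5173 CPM in erythroblasts, with 0, 5063 and 9272 in the lowest, median and highest well, and was 15.6-fold, 18.8-fold and 19.5-fold above B lymphocytes, T lymphocytes and granulocytes but 5.72-fold above progenitor/stem cells, where it stood at 904 CPM. Car1 had 616 CPM and was 16.7-fold, 27.6-fold and 30.3-fold above B lymphocytes, granulocytes and progenitor/stem cells. T lymphocytes had 1 UMI of it against 411 in erythroblasts (log2 ratio 6.95, interval 4.46 to 12.26). With the mean of single-well CPM its smallest log2 ratio fell from 4.07 to 2.55. Car1 was found in 65 wells and Car2 in 95. Car1 overlaps the gene model Gm16399 on the same strand. Bpgm, which makes the compound that loosens oxygen from haemoglobin, had 52 UMIs in 32 wells against 3, 8, 1 and 26 UMIs in the sums of the same 4 populations, short of a call against 3 of them.

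Transcription factors of the erythroid lineage gave fewer calls. All 16 listed transcription factors were tested and 3 were higher than in each population (against 3.91% of all tested genes): Klf1 (708 CPM, 12.0-fold to 49.2-fold), the factor that switches on adult beta globin, Gata1 (304 CPM, 5.55-fold to 10.6-fold), the lineage's master regulator, and Gfi1b (141 CPM, 5.35-fold over progenitor/stem cells and 9.48-fold over granulocytes). Klf1 was detected in 95 of the 96 wells (99.0%), against 12.5% to 14.0% of the wells of each other population, Gata1 in 74 against 11.4% to 20.0%, and Gfi1b in 47. The Gfi1b ratios to B and T lymphocytes rest on 2 UMIs each, and the interval of the log2 ratio to B lymphocytes ran from 1.37 to 6.33. Tal1 had 140 UMIs against 4, 2 and 3 in B lymphocytes, T lymphocytes and granulocytes and was 3.25-fold above progenitor/stem cells. Nfe2 had 145 UMIs against 1 and 2 in B and T lymphocytes but was at 1.07-fold and 1.24-fold of granulocytes and progenitor/stem cells, and Lmo2 (517 CPM) was 0.541-fold of progenitor/stem cells. E2f4 (469 CPM) and Klf3 (819 CPM) missed the limit by a small margin, at 3.92-fold and 3.82-fold over T lymphocytes. Cbfa2t3 was at 0.125 of the progenitor/stem cell level, and Bcl11a had 2 UMIs in erythroblasts against 46 there (log2 ratio −4.20, interval −7.29 to −2.26). Foxo3 (234 CPM) was 1.49-fold to 4.69-fold higher, and Klf13, Ldb1, Lyl1, Zbtb7a and Zfpm1 were not called against each population in either direction. With TMM factors 6 factors passed and with ERCC scaling 5. The receptor that carries the survival signal, Epor (253 CPM), had 169 UMIs against 2, 0 and 2 in B lymphocytes, T lymphocytes and granulocytes and was 35.3-fold above progenitor/stem cells. The log2 ratio of Epor to B lymphocytes was 4.11 with an interval of 2.23 to 7.16. Its partner kinase Jak2 (120 CPM) stood at 0.601-fold to 1.48-fold of the others, turning from lower to higher against T lymphocytes with TMM factors and ERCC scaling and against progenitor/stem cells with TMM factors and without globins, and Stat5b had 13 UMIs. Kit, the stem cell factor receptor, was at 24.0 CPM in erythroblasts and 677 CPM in progenitor/stem cells.

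Removal of organelles and surplus proteins is part of late red cell maturation. Of 14 tested clearance genes 5 were higher than in each population (against 3.91% of all tested genes). Ubac1 (894 CPM, 13.5-fold to 21.2-fold), a subunit of a ubiquitin ligase, and Trim10 (360 CPM, with 240 UMIs against 2, 0, 5 and 4 in the other populations), a ubiquitin ligase itself, were among the 15 genes most set apart. Ube2o, the enzyme that marks ribosomal proteins in reticulocytes, had 166 CPM and was at least 4.77-fold higher, and Tent5c and Ypel4 also passed. The mitophagy receptor gene Bnip3l was at 1.34-fold to 1.63-fold of the other populations, and Ubb, a ubiquitin gene, at 0.936-fold to 1.35-fold, with a direction that turned with the scaling against T lymphocytes, granulocytes and progenitor/stem cells. Antioxidant genes were mixed, with 3 of 14 tested higher than in each population (Prdx2, Prdx3 and Txnrd2), against 3.91% of all tested genes. Prdx2, the main peroxiredoxin of red cells, had 400 CPM and was at least 9.55-fold higher. Gpx1 (3504 CPM) was 9.33-fold, 18.5-fold, 3.74-fold and 5.46-fold above B lymphocytes, T lymphocytes, granulocytes and progenitor/stem cells, and Cat, catalase, had 38 UMIs.

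The ranking by the smallest ratio over the 4 populations was led by Mgst3, a microsomal glutathione transferase, with 684 CPM, or 456 UMIs against 3, 1, 7 and 18 in B lymphocytes, T lymphocytes, granulocytes and progenitor/stem cells. It was 39.4-fold and 31.7-fold above the last 2 of these, and its log2 ratio to T lymphocytes was 7.10 with an interval of 4.61 to 12.41. Others among the 15 were Abcb10, Alad, Tspan33 (a tetraspanin, 870 CPM, at least 17.4-fold), Car1, Trim10, Ermap, Hba-ps4, Slc6a9 (the glycine transporter of the plasma membrane, 219 UMIs against 3, 3, 6 and 10), Rhag, Ubac1, Tspo2 and Aldh1a1 (a retinaldehyde dehydrogenase, 201 UMIs against 1, 3, 10 and 17). The B lymphocyte value rests on 1 to 3 UMIs for Mgst3, Abcb10, Trim10, Slc6a9, Tspo2 and Aldh1a1, and these ratios are imprecise: the log2 ratio was 4.95 with an interval of 3.40 to 7.24 for Mgst3 and 3.89 (2.33 to 6.18) for Slc6a9. Slc6a9, Aldh1a1, Abcb10 and Car1 overlap other gene models. All 15 were detected in at least 64 of the 96 wells.

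**Figure D3:**
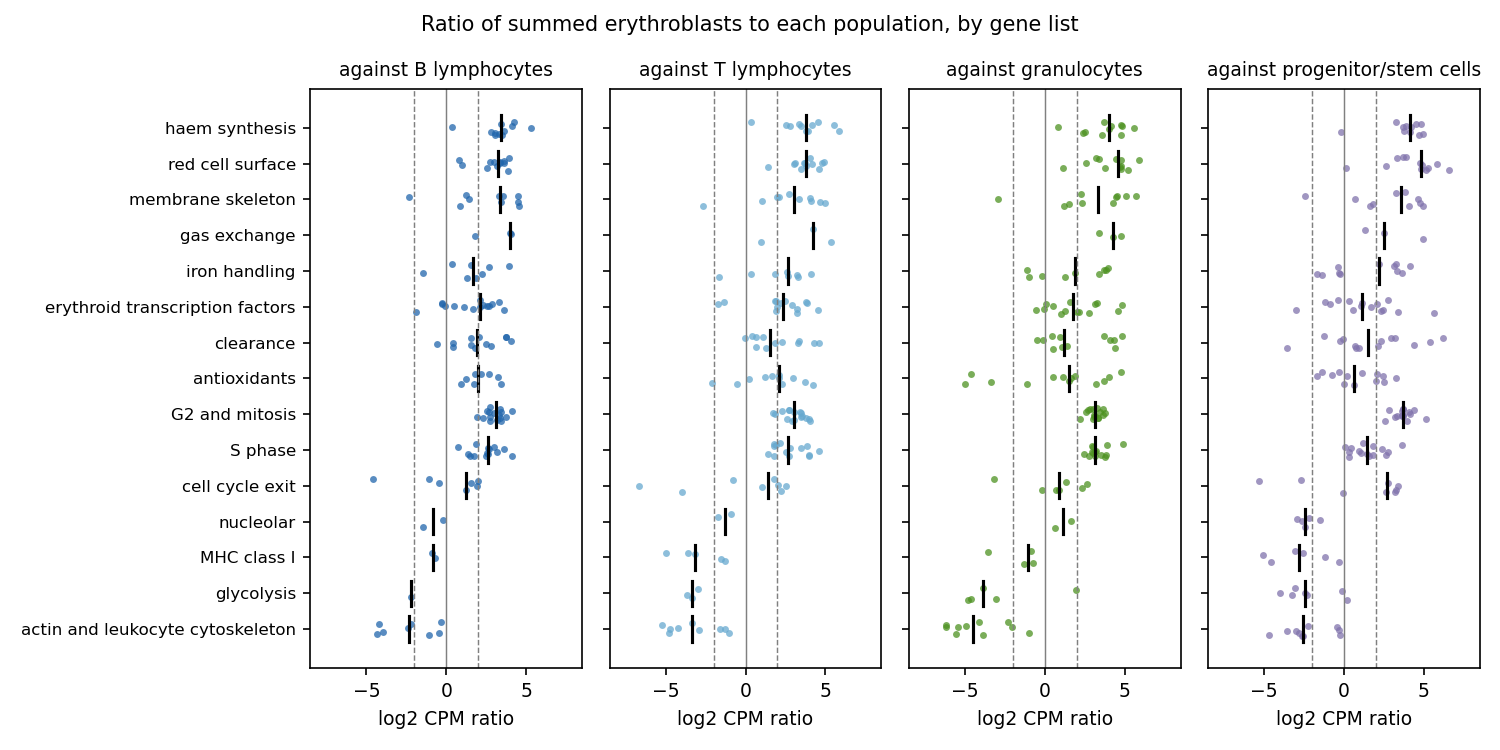
Log2 CPM ratio of the summed erythroblasts to each other population for the members of 15 gene lists with at least 50 UMIs in the pair, with 1 point per gene, a bar at the list's median and dashed lines at 4-fold. The haem synthesis medians lie at 3.40, 3.80, 4.03 and 4.10, the actin and leukocyte cytoskeleton medians at −2.30, −3.37, −4.50 and −2.59.

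Erythroblasts carried the transcripts of dividing cells. Of 16 tested genes of G2 phase and mitosis 14 were higher than in each population (against 3.91% of all tested genes), and with TMM factors or ERCC scaling all 16 were. The list's median log2 ratio was 3.08, 3.04, 3.13 and 3.68 against B lymphocytes, T lymphocytes, granulocytes and progenitor/stem cells. Mki67 had 5061 CPM, with 1523, 4845 and 14948 in the lowest, median and highest well, and was 6.61-fold to 12.7-fold above the others. Top2a, the topoisomerase that untangles chromosomes, had 2176 CPM (4.85-fold to 8.96-fold), and Ube2c, which helps degrade mitotic cyclins, had 1303 CPM (10.9-fold to 35.1-fold). Mki67 was present in every erythroblast well. Cenpa missed the limit against both lymphocyte populations (3.84-fold and 3.31-fold) and Cenpe against T lymphocytes (3.61-fold). Among 15 tested genes of DNA replication and S phase, 4 were higher than in each population (Cdc6, Rrm1, Rrm2 and Tk1), against 3.91% of all tested genes, 14 of 14 tested were higher than in granulocytes (against 20%), and 4 of 15 than in progenitor/stem cells (against 8.26%). With TMM factors 9 and with ERCC scaling 4 were higher than in each. Pcna, the replication clamp, was at 754 CPM, 3.46-fold to 13.8-fold above the others. Of the clustered histone genes, 14 of 21 tested were higher than in each population (against 3.91%), and their sum was 1.10% of erythroblast UMIs against 0.135%, 0.014%, 0.145% and 0.091% elsewhere. Hist1h2ap alone had 5570 CPM and was 8.32-fold to 140-fold above the others. Only RNA caught by the dT primer is counted, and how much histone RNA this leaves out was not tested.

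None of the 9 tested cell cycle exit genes passed in either direction against each population by CPM, while 2 were higher with TMM factors and 3 with ERCC scaling. Ccnd3 (963 CPM), the cyclin that sets the number of erythroid divisions, was 2.34-fold to 6.76-fold above the others, and its relative Ccnd2 (5 UMIs) stood at 0.00995 and 0.0248 of the T lymphocyte and progenitor/stem cell level. Btg2 (364 CPM) was 9.22-fold above progenitor/stem cells and 0.739-fold of B lymphocytes, the latter turning to 1.25-fold with TMM factors and 1.71-fold with ERCC scaling. Cdkn1a and Cdkn1c had 0 UMIs. Among 13 tested genes of nuclear condensation and expulsion, Diaph3, H2afx and Lmna were higher and Rac2 and Vim lower than in each population, against 3.91% and 3.75% of all tested genes. With ERCC scaling 2 were higher and with TMM factors 1 was lower. Lmna, the gene of lamins A and C, had 312 CPM and was 10.6-fold to 37.2-fold higher.

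Genes of the actin and leukocyte cytoskeleton were lower in erythroblasts. Of 10 tested 7 were lower in erythroblasts than in each population (against 3.75% of all tested genes), a count that was 3 with ERCC scaling and 2 with TMM factors. Tmsb4x, the actin monomer binding thymosin, had 136 CPM in erythroblasts against 2570, 3688, 9963 and 938 CPM in B lymphocytes, T lymphocytes, granulocytes and progenitor/stem cells, and in the 96 wells it ran from 0 through a median of 113 to 2146 CPM, the last being 1 UMI in the shallow well C5. Coro1a, Lcp1, Arpc1b, Arpc2, Actg1 and Cotl1 were the other 6. Actb itself (2544 CPM) was at 0.201-fold to 0.821-fold of the others, turning to higher against B lymphocytes with ERCC scaling and against progenitor/stem cells with TMM factors and without globins. Of 7 tested genes of antigen presentation on MHC class I, H2-D1, H2-K1 and Psmb8 were lower than in each population (against 3.75% of all tested genes), and B2m (1311 CPM) was at 0.417-fold to 0.55-fold, turning to higher against B lymphocytes with ERCC scaling. With ERCC scaling 1 and with TMM factors 2 of the 7 passed. Of the 9 tested glycolysis genes, Eno1 and Pkm were lower than in each population by CPM (against 3.75%) and neither was with ERCC scaling or TMM factors. Pklr, the pyruvate kinase of liver and red cells, had 25 UMIs in erythroblasts and 0 in the other 4 populations, where Pkm had 29, 117, 459 and 371 UMIs against 31 in erythroblasts.

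The genes with the lowest ratios were Rasa3, Vim, Il16, Zdhhc20, Vav1, Stat3, Dock8, Gm1966, Arhgap25 and Sla. Vim, the intermediate filament of leukocytes, had 9 UMIs in 9 erythroblast wells, compared with 51, 119, 342 and 351 in B lymphocytes, T lymphocytes, granulocytes and progenitor/stem cells. Its log2 ratios were −4.80, −5.46, −5.97 and −4.96. Vav1, a signalling protein of blood cells, had 1 UMI in erythroblasts and 13, 32, 48 and 101 in the others, and its log2 ratio to progenitor/stem cells had an interval from −11.65 to −3.82. Rasa3, a Ras inhibitor, had 3 UMIs against 30, 42, 58 and 155, with a log2 ratio to progenitor/stem cells of −5.37 (−7.66 to −3.79). The remaining 7 had 2 to 7 UMIs in the erythroblast sum.

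Ribosomal protein genes were not called against all 4 populations in either direction, for any of the 68 tested. They held 3.60% of erythroblast UMIs, against 3.01% in B lymphocytes, 4.16% in T lymphocytes, 1.47% in granulocytes and 5.78% in progenitor/stem cells. Genes of the nucleolus, where ribosomes are built, held 0.0453% against 0.22% in progenitor/stem cells, and 4 of the 5 tested in that comparison were lower (against 21.6% of all tested genes). Many ribosomal protein genes have near-identical pseudogenes, to which part of their reads may have been assigned. Transcripts of the mitochondrial genome held 3.24% of erythroblast UMIs, against 1.09% in granulocytes, 1.60% in progenitor/stem cells, 2.03% in T lymphocytes and 2.88% in B lymphocytes. The ribosomal RNA genes mt-Rnr2 (13497 UMIs) and mt-Rnr1 (3134) held most of these, and the protein-coding genes of the mitochondrial genome alone held 0.70% in erythroblasts against 0.224%, 0.493%, 0.912% and 0.635% in the same order, so that they were not highest in erythroblasts.

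The erythroblast wells differed among themselves in globin, ribosomal and cell cycle transcripts. Of 943 genes with at least 100 UMIs, 218 (23.1%) had a variance between wells of more than 2 times that of Poisson counting at each well's depth. The highest ratios of variance to Poisson variance belonged to Gm42418 (310), Hbb-bs (216), Hba-a1 (138), Hba-a2 (114), Lars2 (112), Hbb-bt (77.3), mt-Rnr2 (48.8), Mir6240 (38.9), mt-Rnr1 (32.6) and AA474408 (23.0). Lars2, the mitochondrial leucyl-tRNA synthetase, ran from 0 through a median of 398 to 38857 CPM. Klf1 had a ratio of 0.947 and Urod 1.05. At equal relative spread this ratio is larger for genes with more UMIs, so that it does not compare the spread of genes of unlike counts. Across the 96 wells, UMIs ran over 43.9-fold, UMIs per ERCC UMI over 5.64-fold and the globin share over 14.8-fold, while the haem synthesis share ran over 2.66-fold. The low end of the UMI range is well C5, the only erythroblast well under 1000 UMIs. The globin share of the median well by plate row was 27.2% in row C, 32.9% in D, 27.6% in E and 18.1% in F, and the median Ter119 fluorescence was 6566.5, 8080.5, 5996 and 5717.5 arbitrary units.

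The sorter recorded fluorescence and scatter for each cell before lysis, so that RNA and protein signals can be set side by side in the same cell. The following correlations describe 96 wells that share a mouse, a plate and, for percentages, a common total, and they carry no test. The globin share was higher in wells of higher Ter119 fluorescence (Pearson r = 0.75, Spearman rho = 0.78), and r lay between 0.53 and 0.92 within the 4 plate rows and was 0.76 without the 2 wells of most extreme Ter119. It was lower in wells of higher CD44 (r = −0.62, rho = −0.59, within rows −0.66 to −0.61, −0.61 without the 2 farthest wells) and of higher forward scatter area (r = −0.43, rho = −0.40, −0.42 without the 2 farthest wells). Within row C the relation with forward scatter had r = −0.02, and in the other rows it lay between −0.60 and −0.52. The RNA yield was higher in larger cells and those of higher CD44: mouse UMIs per ERCC UMI had r = 0.64 (rho = 0.56) with forward scatter area and 0.61 (rho = 0.56) with CD44, with ranges of 0.20 to 0.84 and 0.64 to 0.69 within rows. CD44 and Ter119 fluorescence had r = −0.38 with each other (−0.54 to −0.04 within rows).

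**Figure D4:**
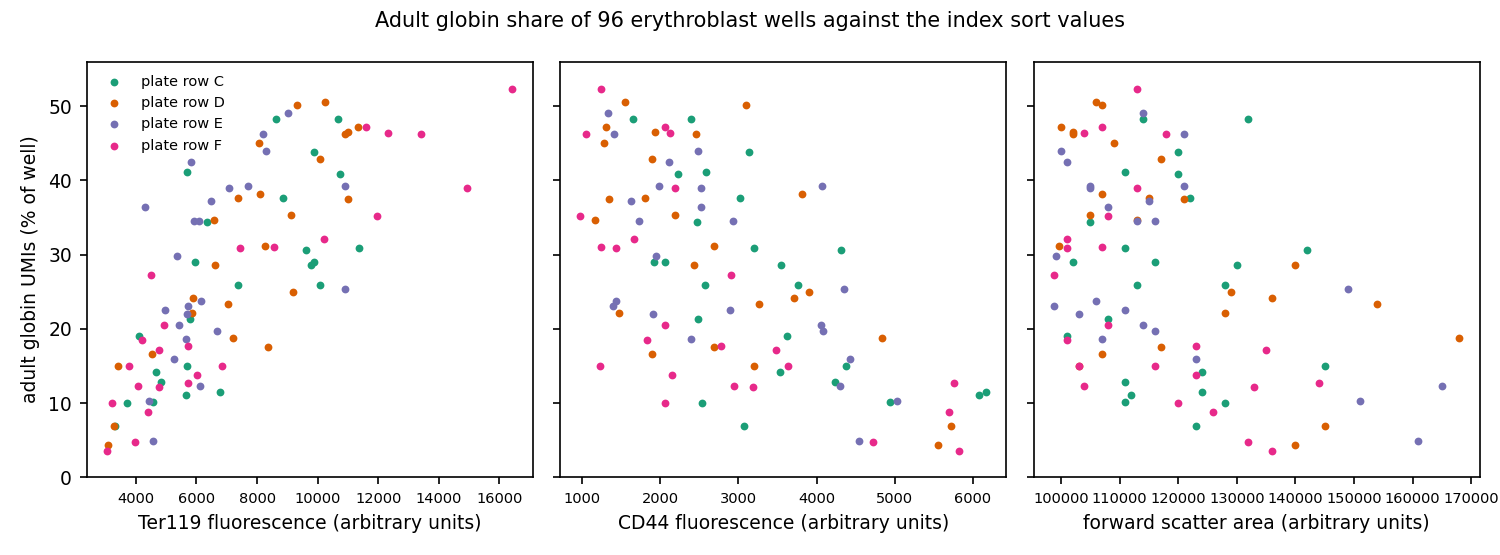
Adult globin share of the UMIs of each of the 96 erythroblast wells against Ter119 fluorescence, CD44 fluorescence and forward scatter area, all in arbitrary units, with 1 point per well coloured by plate row. The share is higher at high Ter119 (r = 0.75) and lower at high CD44 (r = −0.62) and high forward scatter (r = −0.43).

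Wells with a larger globin share had a lower UMI yield and smaller shares of several other gene groups. The globin share had r = −0.75 (rho = −0.81) with UMIs per ERCC UMI, −0.86 (−0.88) with the ribosomal protein share, −0.81 (−0.80) with the S phase share and −0.62 (−0.60) with the nucleolar share, and within plate rows these ran from −0.84 to −0.69, −0.89 to −0.86, −0.88 to −0.73 and −0.69 to −0.45. The share of G2 and mitosis genes went the other way, with r = 0.39 (rho = 0.43, within rows 0.26 to 0.66). Because a share of globin takes from all other shares, the latter were also computed over the UMIs left after removal of the adult globins and Gm42418. The ribosomal share of these UMIs then had r = −0.85 with the globin share, the S phase share −0.69 and the G2 and mitosis share 0.64. Per ERCC UMI, globin UMIs had r = 0.67 with Ter119, and all other UMIs −0.56. The G2 and mitosis share had r = −0.23 with forward scatter and −0.35 with CD44. The histone share had r = −0.02 with the globin share, 0.15 with the S phase share and 0.16 with the G2 and mitosis share, and within plate rows these ran from −0.37 to 0.50, −0.38 to 0.55 and 0.12 to 0.26. Single wells show the size of these differences: the ribosomal protein share was 0.24% in the lowest well, 2.30% at the median and 8.85% in the highest, and the S phase share 0.0274%, 0.51% and 0.977%.

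**Figure D5:**
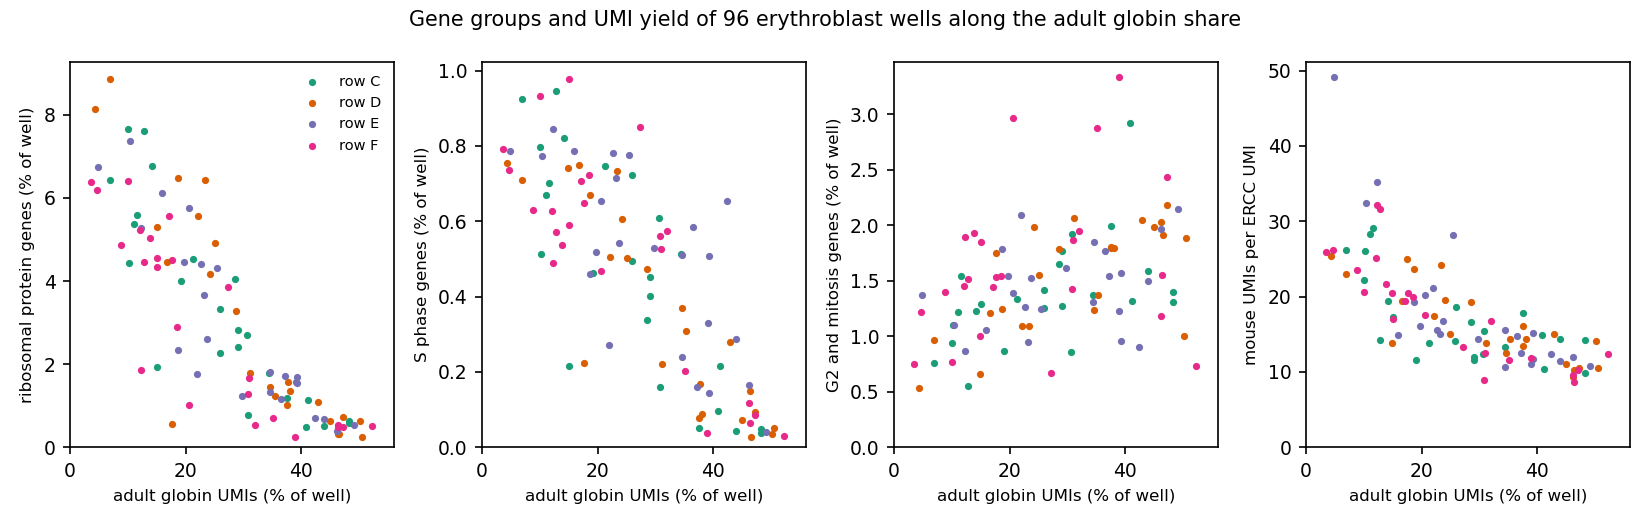
Share of UMIs on ribosomal protein, S phase and G2 and mitosis genes, and mouse UMIs per ERCC UMI, against the adult globin share in the 96 erythroblast wells, coloured by plate row. Ribosomal protein and S phase shares and the UMI yield are lower in wells with a larger globin share (r = −0.86, −0.81 and −0.75), while the G2 and mitosis share is higher (r = 0.39).

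Setting the 24 wells of lowest Ter119 (up to 4943 arbitrary units) beside the 24 of highest (from 9213.5) gave a median globin share of 12.2% and 41.8%, a ribosomal protein share of 5.44% and 0.637%, an S phase share of 0.745% and 0.107%, a G2 and mitosis share of 1.10% and 1.73%, and 8149.5 and 5236 UMIs. The median CD44 fluorescence of these wells was 3339.5 and 2155.5. For single genes the summed counts of these wells were scaled to UMIs other than adult globins and Gm42418, for 391 genes with at least 200 UMIs. The genes named from here on were chosen after their values were seen. A ratio above 1 is thus a larger share of these remaining UMIs and need not be a larger count. UMIs other than adult globins were fewer per ERCC UMI at high Ter119 (r = −0.56). The Spearman correlation with Ter119 over all 96 wells was above 0.5 for 35 genes and below −0.5 for 80, of which 67 were ribosomal protein genes or gene models and pseudogenes. Ribosomal protein genes made up 27 of these 67, out of 40 among the 391 genes. The share of gene models and pseudogenes among the 391 was not counted. The median correlation over the 391 genes was −0.07.

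The intervals of the ratio of high to low Ter119 lay above 1 for 151 of the 391 genes and below 1 for 160, with a median ratio of 0.926. Of the listed genes among them, 7 of 7 membrane skeleton, 8 of 8 red cell surface, 7 of 9 haem synthesis and 3 of 5 iron handling genes lay above 1, with 1 of the haem and 1 of the iron genes below. Slc4a1 (rho = 0.75) was 2.95-fold higher in the wells of highest Ter119 (interval 2.65 to 3.28), Alas2 (rho = 0.68) 3.83-fold (3.24 to 4.53), Slc25a37 (rho = 0.66) 3.95-fold (3.35 to 4.67), Fech (rho = 0.63) 2.69-fold (2.22 to 3.27) and Gpx1 (rho = 0.67) 2.50-fold (2.22 to 2.81). The haem route did not vary as a block. Beside Alas2 and Fech, its first and last enzymes, Cpox was 1.36-fold (1.14 to 1.61) and Alad 1.09-fold (0.811 to 1.45) higher, and the transporter gene Tmem14c was lower, at 0.301-fold (0.213 to 0.416, rho = −0.60). Of the carbonic anhydrases, Car2 was 1.48-fold higher (1.34 to 1.63) and Car1 was at 0.189-fold (0.106 to 0.315, rho = −0.58). Aldh1a1 was at 0.582-fold (0.348 to 0.936) and the biliverdin reductase gene Blvrb at 1.00-fold (0.808 to 1.24). Gata1 was at 0.998-fold (0.606 to 1.60), Klf1 at 1.69-fold (1.29 to 2.20) and Klf3 at 2.54-fold (1.96 to 3.29).

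The 12 listed G2 phase and mitosis genes with at least 200 UMIs all had ratios with intervals above 1, and of 8 listed S phase genes 7 had intervals below 1. These are ratios of shares, and counts can go the other way. Hmmr, at 1.60-fold, had 79 UMIs in the wells of lowest Ter119 and 53 in those of highest. Whether the counts of the G2 and mitosis genes per ERCC UMI differed was not tested. Ube2c (4.86-fold, 3.96 to 5.99), Cenpf (3.85-fold, 3.05 to 4.89) and the phosphatase gene Cdc25b (5.61-fold, 3.87 to 8.25), all of G2 phase and mitosis, were higher at high Ter119, and Mki67 was 2.12-fold higher (1.92 to 2.34). Among genes of replication, Mcm6 was at 0.241-fold (0.132 to 0.411), Mcm5 at 0.348-fold (0.20 to 0.574), Mcm4 at 0.383-fold (0.223 to 0.625) and Pcna at 0.406-fold (0.278 to 0.577), while Tk1 was at 0.96-fold (0.677 to 1.34). Outside the lists, some mitotic genes did not follow: Ncapg2 was at 0.547-fold (0.357 to 0.813) and Kif23 at 1.19-fold (0.753 to 1.85). Of the elongation factors of translation, Eef1a1 was at 0.157-fold (0.0736 to 0.296, rho = −0.66) and Eef2 at 0.397-fold (0.285 to 0.542). Malat1, a nuclear long non-coding RNA, was 3.48-fold higher (3.03 to 4.00, rho = 0.71). The granulocyte markers with enough UMIs, S100a8 (2.02-fold, 1.44 to 2.83, rho = 0.37) and S100a9 (1.84-fold, 1.34 to 2.53, rho = 0.33), were also higher at high Ter119, and their part in these ratios was not tested. Ferritin Fth1 was at 0.94-fold with an interval of 0.829 to 1.06. Within plate rows the Ter119 correlation of Slc4a1 ranged from 0.48 to 0.84, that of Ube2c from 0.47 to 0.80 and that of Car1 from −0.70 to −0.38.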

How the data were processed

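The study deposited 1 table of UMI counts per gene and well (unit: counts), which the authors made from CEL-seq2 reads with the scPipe package: barcode and UMI trimming, alignment (Rsubread by default), assignment to exons, demultiplexing by the designed well barcodes and collapse of UMIs within a small edit distance. Its version, the genome build, the annotation and the strand setting were not stated by the sources. The table held 19829 mouse gene rows and 74 ERCC rows. Of its 383 columns, 374 matched a sample by name and 9 were not used. The labels give the plate position and index sort values, and samples were grouped by title.

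Counts were summed per population and compared as CPM, since 1 mouse allows no test. A call needed 4-fold, at least 50 UMIs in the sums compared, at least 10 in the higher sum, and sums under 3 UMIs were set to 3. Intervals (95%) were exact Poisson, binomial and conditional binomial, and cover counting error only. No cell was filtered and no doublet caller was run, since each well took 1 sorted cell. Wells were thinned once with a fixed seed. A well's nearest population was that with the highest correlation of log2(CPM + 10) over 3906 genes. Symbols, coordinates and overlaps came from GENCODE M21 (GRCm38), which gave 19755 rows a symbol, and promoters from RefSeq (GRCm38.p6).

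Genes were named by rule: the 15 with most UMIs, the 15 with the highest smallest ratio and the 10 with the lowest largest ratio, the 10 of most variance, all members of the globin, haem, gas exchange and transcription factor lists, and from other lists the 4 with most UMIs and the 2 highest and 2 lowest ratios. Other list members were named after their values were seen. Members and the 27 gene lists were chosen with earlier results of these data known. The comparison by Ter119, 15 of the 27 relations between wells and the analysis without 7 wells were added after seeing the data. The alternatives were other scalings (edgeR TMM, ERCC, totals without globins), filters, floors, folds and plate rows left out. Scripts were tested on simulated data. Python 3.11.15, numpy 2.4.6, pandas 2.3.3, scipy 1.17.1, matplotlib 3.10.9, R 4.3.3 and edgeR 4.0.16 were used. Some genes that the rule names are not reported here.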

Additional observations from a re-analysis of the deposited data

How the results depend on the processing

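No paired analysis was possible because all wells came from 1 mouse and the wells of different populations share no replicate. All values below are for the comparisons named in the text, and the cause of a change was not tested unless stated. With TMM factors the counts of genes at least 4-fold higher were 417 against each of the 4 populations, 681 against B lymphocytes, 704 against T lymphocytes and 641 against progenitor/stem cells, and the counts lower were 128, 110 (B lymphocytes) and 610 (progenitor/stem cells). Scaled to ERCC UMIs, 893 were higher than in B lymphocytes and 1113 than in granulocytes, and 94 lower than in B lymphocytes and 133 lower than in each. By construction fewer genes were tested with a minimum of 100 UMIs, where 51 (B lymphocytes), 99 (T lymphocytes), 287 (granulocytes) and 437 (progenitor/stem cells) were lower and 381 higher than in granulocytes. Without a minimum, more genes were tested, and 725, 1238, 1493 and 2681 were lower in the same order, with 927 higher than in granulocytes and 617 higher than in progenitor/stem cells. At 8-fold, 87 genes were higher and 94 lower than in each population, and 140, 228, 308 and 237 were higher than in B lymphocytes, T lymphocytes, granulocytes and progenitor/stem cells, with 99 lower than in B lymphocytes, 180 lower than in T lymphocytes and 565 lower than in progenitor/stem cells. The globin share was 25.7% with Gm42418 left out of the total and 27.4% as the mean over wells, and ran from 22.5% to 25.0% with each plate row left out. The thinned gene number was 704 without adult globins and Gm42418 and 833 at 2000 UMIs. Leaving out each plate row, the correlation of the globin share with the G2 and mitosis share ran from 0.31 to 0.53 and that of UMIs per ERCC UMI with forward scatter from 0.51 to 0.72, and the counts against each population from 243 to 252 higher and 223 to 246 lower. The 25 ratios of the genes ranked most above (15) or most below (10) the other populations kept their direction under the scalings, the mean of single-well CPM, the removal of shallow wells, of the 7 wells or of a plate row. With the mean of single-well CPM 7 of the 15 smallest ratios moved by over 1.5 times, among them the log2 value of Car1 to 2.55, Tspo2 to 2.36, Rhag to 2.96, Aldh1a1 to 2.88, Mgst3 to 4.17 and Tspan33 to 3.52. Of all listed and named genes, chosen as an alternative after seeing the data, 22 of 253 ratios to B lymphocytes, 21 of 250 to T lymphocytes, 3 of 257 to granulocytes and 34 of 271 to progenitor/stem cells turned with TMM factors, 35, 18, 25 and 2 with ERCC scaling, and 4, 8, 10 and 16 without adult globins and Gm42418. The other populations' depth limits the ratios of genes with few UMIs there, and 1 mouse limits all of them.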
